A study of Caenorhabditis elegans and Caenorhabditis briggsae with 26 samples.

Results

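A set of 10 genes of the nematode molting program was followed from embryo to young adult in Caenorhabditis elegans and Caenorhabditis briggsae. They were taken by their sequence IDs: nhr-23 (C01H6.5), nhr-25 (F11C1.6), lin-42 (F47F6.1), lrp-1 (F29D11.1), nekl-2 (ZC581.1), nas-37 (C17G1.6), bli-5 (F45G2.5), mlt-11 (W01F3.3), mlt-7 (ZK430.8) and mlt-10 (C09E8.3). These are 10 of the 21774 IDs with C. elegans values, and all 10 are among the 13813 ortholog pairs with C. briggsae values. RNA came from whole animals of the wild-type strains N2 (C. elegans) and AF16 (C. briggsae), cultured at 20 °C in liquid with bacteria as food. Embryos of mixed age were taken from bleached adults, and larvae that had hatched without food were then fed to start a synchronous course. C. elegans was harvested 7 h (L1), 20 h (L2), 29 h (L3), 41 h (L4), 52 h (late L4) and 57 h (young adult, before eggs were carried) after food was added. C. briggsae was harvested after 6, 20, 28, 41, 53 and 63 h. Embryos and L1 larvae of either species were sequenced as 3 libraries from 2 cultures (A1 and A2 from culture A, and B). Each later stage was sequenced as 1 library of culture A, and a pool of all stages as 2 libraries. Each sample was a pool of animals, so the position of single animals within a molting cycle was not recorded.

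Nematodes replace their collagen cuticle at the end of each larval stage, and the epidermis switches a large set of genes on and off once per stage. Nuclear receptors and a Period-like protein time these pulses. The effectors are proteases that loosen the old cuticle, inhibitors that restrain them, enzymes that cross-link the new matrix, and receptors and kinases of the membrane traffic that molting needs. A population harvested at a fixed hour therefore samples 1 part of the cycle.

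Expression is given as RPKM, the authors' read numbers scaled by the length of the gene model and by the mapped reads of the library, which allows levels to be compared between genes per length. Read counts were not used here. From the RPKM step that 1 read gives, the C. elegans libraries were estimated at 6457000 to 9333000 mapped reads for embryo A2, embryo B and the L1 libraries, and at 21380000 to 28180000 for the others. No library held a value of 0, so the lowest values may include an offset, and the depth and read estimates are approximate. All C. elegans L1 libraries are in the shallower set and all later stages in the deeper one. Depth and stage cannot be told apart there. Adult markers were highest in young adults, but were not limited to them: 3 genes of adults (vit-2, vit-6, col-19) summed to 407.9 RPKM in C. elegans L2 and 66.04 in L3, against 9106 in young adults and 0.116 to 4.65 in the other C. elegans stages. In C. briggsae the same sum was 0.350 to 63.6 RPKM before the young adult and 15200 RPKM there. The part of that adult signal in the C. elegans L2 and L3 values below was not tested. Replicate libraries differed unequally. Embryo A1 and A2 of C. elegans, from the same culture, were more than 2-fold apart in 16.13% of genes but in 0 of the 10 molting genes. Embryo A1 and B of C. elegans were that far apart in 16.65% of genes, but A2 and B, from different cultures, in only 1.564%. C. briggsae embryo A2 and B were that far apart in 13.37% of genes and in 3 of the 10.

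The C. elegans loci, in Ensembl 115 coordinates of WBcel235, lie on 5 chromosomes. The regulators nhr-23, nhr-25 and lin-42 stand at chromosome I 7214745 to 7221299, chromosome X 13008493 to 13013964 and chromosome II 1233236 to 1252359. The genes lrp-1 and nekl-2 stand at chromosome I 7614176 to 7634143 and 6663161 to 6665160. The protease gene nas-37 stands at chromosome X 9944844 to 9949063, and the inhibitor genes bli-5 and mlt-11 at chromosome III 13427640 to 13429768 and chromosome V 20667205 to 20678537. Both mlt-7 (4393007 to 4404850) and mlt-10 (546705 to 552032) lie on chromosome II. Exons of neighbours overlap 84 of 1192 exon bases of nekl-2, 32 of 2542 of nas-37 and 82 of 747 of bli-5, in each case on the opposite strand. For mlt-10, lips-7 shares 109 of 2339 exon bases on the same strand. Whether the counting used strand is not given in the sources used here, so a small part of these values may come from the neighbours.

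Over the 7 stages the group was low in L1, high from L3 to late L4 and low again in young adults of C. elegans. Each gene was set against its own mean over the 7 stages of culture A on the log2(RPKM + 1) scale. In C. elegans the median deviation of the 10 genes was -0.97 to -1.38 in the 3 L1 libraries, -0.85 in L2, 1.57 in L3, 0.83 in L4, 1.06 in late L4 and -2.45 in young adults. In L3, L4 and late L4, 9 of the 10 genes were above their own mean, and in young adults 2 were. In C. briggsae the high interval began and ended earlier: the medians were 0.72 in L2, 1.41 in L3, 1.05 in L4, 0.07 in late L4 and -0.97 in young adults. Embryos stood apart between the species, with medians of 0.21 to 0.39 in the 3 C. elegans libraries and -1.26 to -1.72 in the 3 of C. briggsae. The deviations are relative to each species' own mean, and the later stages have 1 library each, so the order of neighbouring stages from L2 onward carries no replicate error.

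**Figure D1:**
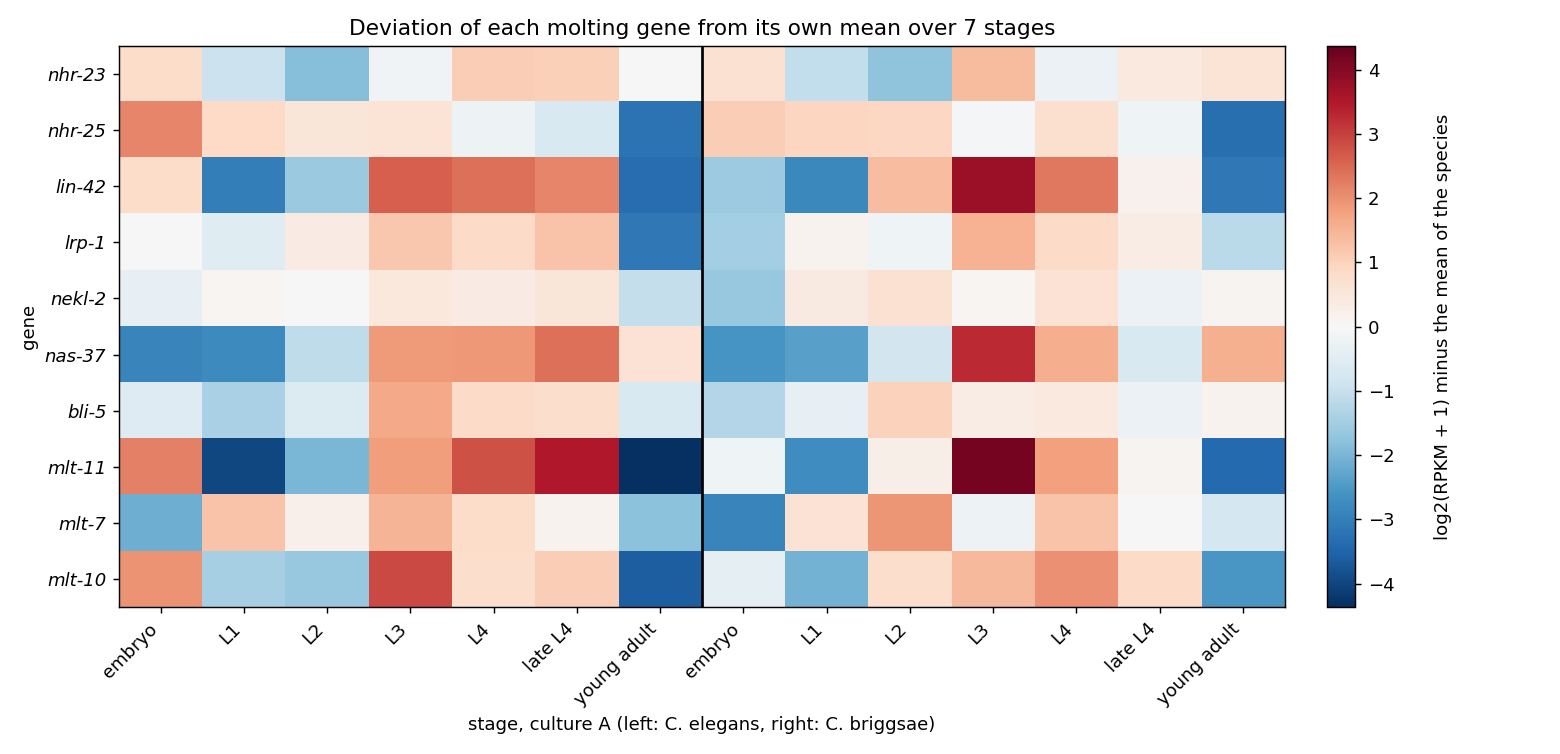
Deviation of log2(RPKM + 1) of each molting gene (rows) from its mean over 7 stages of culture A, with C. elegans stages on the left and C. briggsae stages on the right. Red cells gather from L3 to late L4 in C. elegans (median deviations 1.57, 0.83 and 1.06) and from L2 to L4 in C. briggsae (0.72, 1.41 and 1.05).

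Stage differences common to both species were tested in an additive model of species and stage, in which the 2 species stand as the replicates of a stage. Over 12945 ortholog pairs, 38.9% differed between any of the 7 stages (limma moderated F test, Benjamini-Hochberg adjusted p under 0.05), and 8 of the 10 molting genes did. Adjusted p-values were 0.00140 for nhr-25, 0.00655 for nas-37, 0.00727 for lin-42, 0.0121 for mlt-11, 0.0172 for mlt-7, 0.0189 for mlt-10, 0.0314 for lrp-1 and 0.0323 for nhr-23. The 2 that did not pass were bli-5 (adjusted p = 0.236) and nekl-2 (adjusted p = 0.326). Without the C. elegans young adult library, which leaves 1 sample at that stage, fewer of the 10 passed, and so did a smaller share of all pairs. The calls of lrp-1 and nhr-23 were lost in 9 and 8 of 19 alternative fits. The call of mlt-10 was lost in 2 of them (adjusted p = 0.0605 and 0.0818) and that of mlt-7 in 1 (adjusted p = 0.0669).

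**Figure D2:**
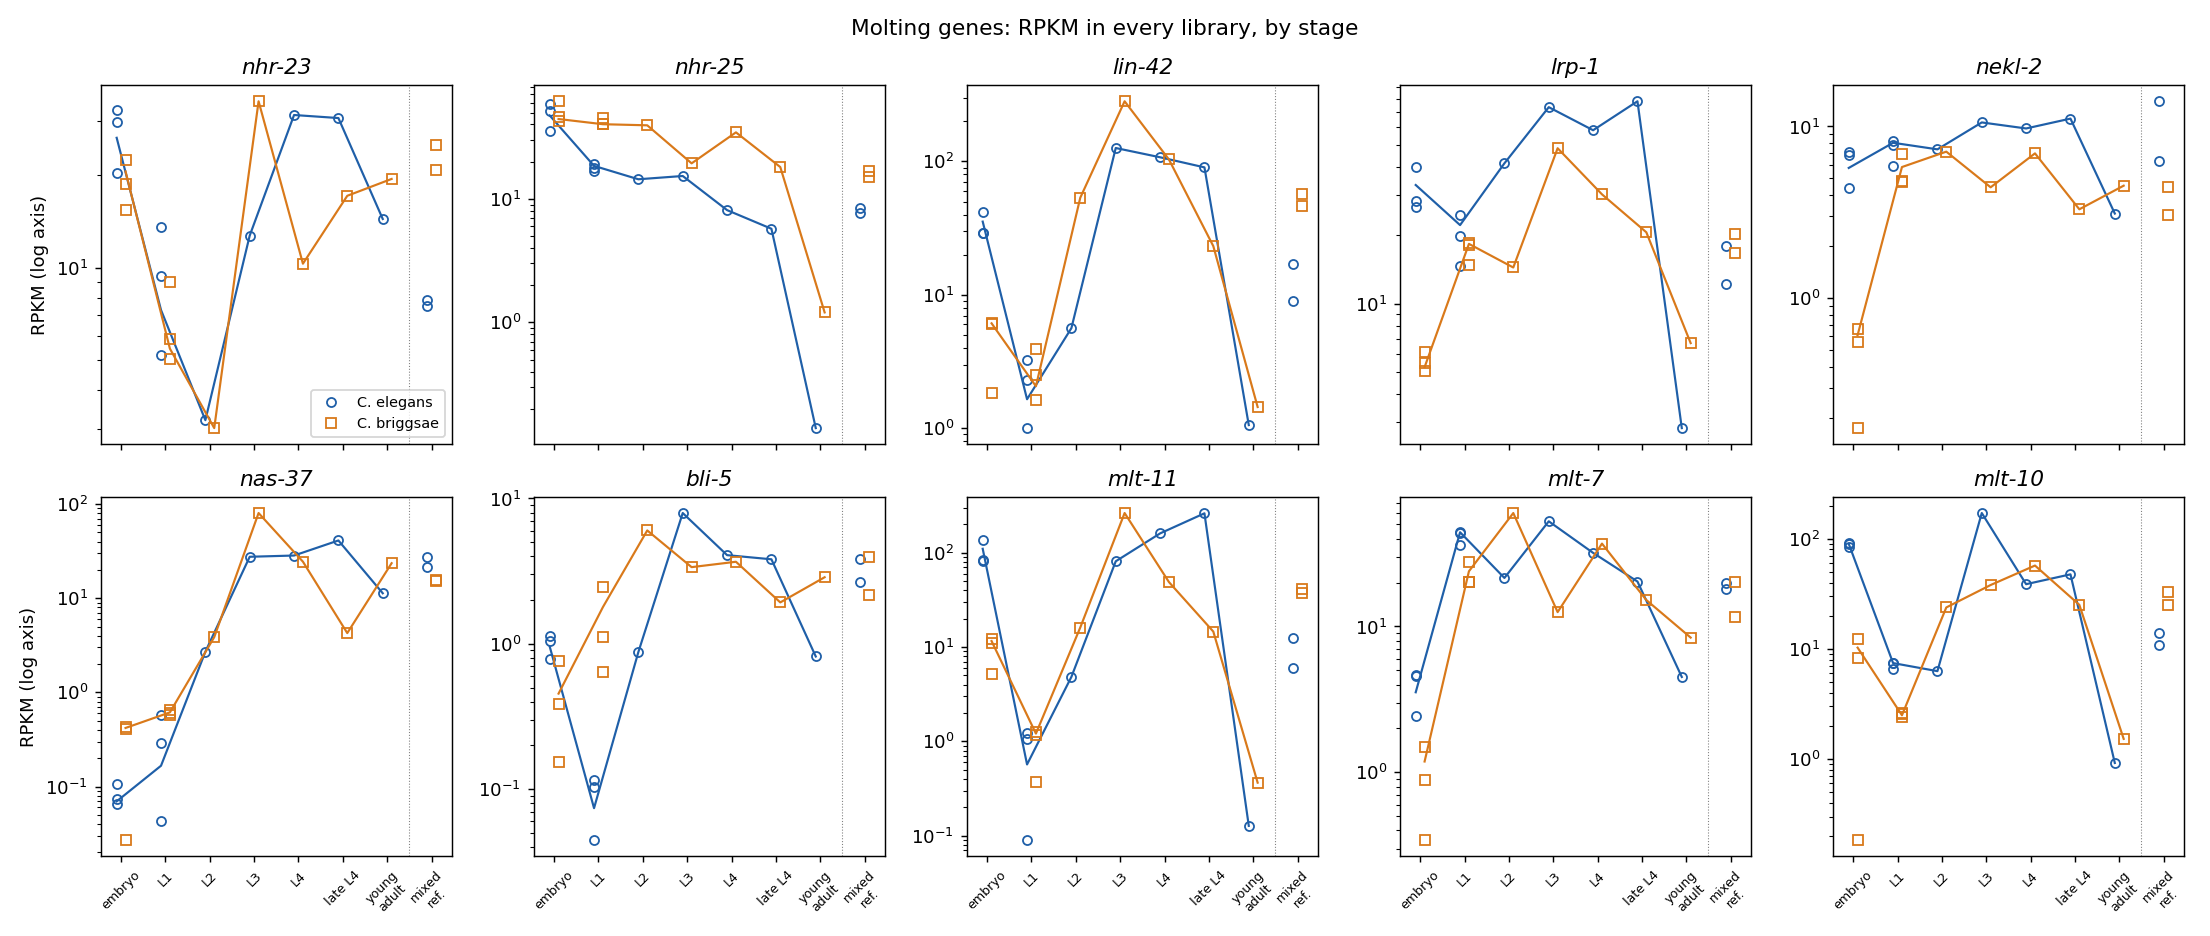
RPKM (log axis) of the 10 molting genes in every library by stage, with C. elegans as circles, C. briggsae as squares and lines through culture A. Most genes reach their highest larval level in L3, L4 or late L4 in C. elegans. In C. briggsae 5 genes reach it in L3 and 3 in L2, and nhr-25 is highest in L1 larvae among the stages after hatching in both species.

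The 3 regulators had 3 different courses. The nuclear receptor NHR-23, the nematode relative of ROR and DHR3, is required for molting. In C. elegans nhr-23 was at 20.2, 32.5 and 29.8 RPKM in embryo libraries A1, A2 and B, at 9.38, 5.20 and 13.6 in L1, at 3.20 in L2, 12.7 in L3, 31.3 in L4, 30.6 in late L4 and 14.4 in young adults. In C. briggsae it was at 22.4, 18.7 and 15.4 RPKM in embryos, at 5.88, 5.05 and 8.96 in L1, at 3.02 in L2, 34.7 in L3, 10.3 in L4, 17.1 in late L4 and 19.4 in young adults. Both species thus had their lowest nhr-23 level in L2 and did not show a low level in young adults. The highest level after hatching fell in L4 in C. elegans and in L3 in C. briggsae, where L4 was at 10.3 RPKM.

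The nuclear receptor NHR-25, the relative of Ftz-F1 and SF-1, acts in epidermal development and molting. In C. elegans nhr-25 was at 35.8, 58.9 and 51.6 RPKM in embryos, at 19.1, 17.9 and 16.7 in L1, at 14.4 in L2, 15.3 in L3, 8.11 in L4, 5.73 in late L4 and 0.139 in young adults. The C. briggsae libraries had it at 42.8, 45.8 and 61.7 RPKM in embryos, at 40.3, 40.2 and 45.3 in L1, at 39.4 in L2, 19.4 in L3, 34.6 in L4, 18.1 in late L4 and 1.205 in young adults. Its highest level after hatching was in L1 in both species, and young adults were its lowest stage in both. Its 7-stage course had the highest correlation between species among the 10 genes, a Pearson r of 0.91 over 7 stages, given as a description.

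LIN-42, the nematode relative of the circadian protein Period, acts in developmental timing, and its transcript is known to oscillate with the molts. In C. elegans lin-42 was at 41.8, 29.0 and 28.8 RPKM in embryos, at 2.30, 1.00 and 3.24 in L1, at 5.63 in L2, 126 in L3, 107 in L4, 90.2 in late L4 and 1.06 in young adults. Its level in C. briggsae was 6.08, 6.15 and 1.83 RPKM in embryos, at 2.51, 1.62 and 3.94 in L1, at 53.4 in L2, 282 in L3, 103 in L4, 23.2 in late L4 and 1.44 in young adults. L1 larvae and young adults held low levels in both species and L3 the highest. The species differed in the embryo level, which was 28.8 to 41.8 RPKM in C. elegans and 1.83 to 6.15 in C. briggsae, and in the L2 level, already 53.4 RPKM in C. briggsae. C. elegans L2 stood at 5.63 RPKM, against 1.00 to 3.24 in its L1 libraries.

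The uptake and trafficking genes were lrp-1 and nekl-2. LRP-1 is a megalin-like receptor of the apical epidermal surface that is needed for sterol uptake and molting. In C. elegans lrp-1 was at 39.9, 26.8 and 28.5 RPKM in embryos, at 24.6, 19.8 and 14.7 in L1, at 41.5 in L2, 73.4 in L3, 58.1 in L4, 77.9 in late L4 and 2.83 in young adults. In C. briggsae it was at 5.47, 5.02 and 6.099 RPKM in embryos, at 18.2, 18.5 and 14.8 in L1, at 14.4 in L2, 48.4 in L3, 30.3 in L4, 20.6 in late L4 and 6.70 in young adults. Embryos were the lowest stage in C. briggsae and young adults the lowest in C. elegans.

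NEKL-2 is a NIMA-related kinase that acts in epidermal endocytosis and in shedding the cuticle. In C. elegans nekl-2 was at 4.35, 7.12 and 6.80 RPKM in embryos, at 7.79, 8.28 and 5.88 in L1, at 7.36 in L2, 10.6 in L3, 9.74 in L4, 11.11 in late L4 and 3.11 in young adults. The C. briggsae libraries had it at 0.554, 0.664 and 0.175 RPKM in embryos, at 4.74, 6.87 and 4.83 in L1, at 7.13 in L2, 4.42 in L3, 6.97 in L4, 3.29 in late L4 and 4.52 in young adults. Beyond its low level in C. briggsae embryos it stayed within 3.11 to 11.11 RPKM in the staged libraries of both species after hatching. Its courses had the lowest correlation between species of the 10 genes, with r = 0.24 over 7 stages.

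Among the effectors, NAS-37 is an astacin-family metalloprotease that helps to digest the old cuticle. In C. elegans nas-37 was at 0.0648, 0.0743 and 0.108 RPKM in embryos, at 0.289, 0.0434 and 0.576 in L1, at 2.70 in L2, 27.6 in L3, 28.5 in L4, 41.1 in late L4 and 11.3 in young adults. Its level in C. briggsae was 0.426, 0.411 and 0.0271 RPKM in embryos, at 0.657, 0.570 and 0.606 in L1, at 3.87 in L2, 80.5 in L3, 24.5 in L4, 4.27 in late L4 and 23.6 in young adults. Embryo and L1 levels were below 1 RPKM in every library of both species, and young adults were above 10 RPKM in both. The estimated number of reads behind the C. elegans L1 A1 value was 4.74, so these low values carry large counting error.

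The Kunitz-type inhibitors BLI-5 and MLT-11 differed in level. In C. elegans bli-5 was at 1.13, 0.791 and 1.04 RPKM in embryos, at 0.103, 0.0448 and 0.116 in L1, at 0.878 in L2, 7.94 in L3, 4.08 in L4, 3.82 in late L4 and 0.818 in young adults. In C. briggsae it was at 0.153, 0.756 and 0.388 RPKM in embryos, at 1.12, 2.46 and 0.637 in L1, at 6.03 in L2, 3.37 in L3, 3.67 in L4, 1.93 in late L4 and 2.87 in young adults. Its highest value was in L3 in C. elegans and in L2 in C. briggsae, and it did not exceed 7.94 RPKM in any staged library. About 0.497 of a read was estimated behind the C. elegans L1 A1 value, so this value may be a floor and not a measured level.

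The other inhibitor gene, mlt-11, had the widest range of the 10 genes in C. elegans. There it was at 135, 84.7 and 81.4 RPKM in embryos, at 1.05, 0.0903 and 1.23 in L1, at 4.83 in L2, 81.1 in L3, 160 in L4, 261 in late L4 and 0.127 in young adults. The C. briggsae libraries had it at 10.98, 12.2 and 5.16 RPKM in embryos, at 1.15, 1.26 and 0.373 in L1, at 16.1 in L2, 263 in L3, 48.8 in L4, 14.6 in late L4 and 0.365 in young adults. The highest stages reached nearly the same RPKM in both species, but in late L4 in one and in L3 in the other.

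MLT-7 is a heme peroxidase of the animal type that contributes to cross-linking of the cuticle. In C. elegans mlt-7 was at 2.45, 4.63 and 4.60 RPKM in embryos, at 44.0, 44.5 and 36.2 in L1, at 21.5 in L2, 52.6 in L3, 31.9 in L4, 20.3 in late L4 and 4.51 in young adults. Its level in C. briggsae was 0.880, 1.49 and 0.345 RPKM in embryos, at 20.2, 27.6 and 20.3 in L1, at 59.9 in L2, 12.5 in L3, 36.97 in L4, 15.2 in late L4 and 8.39 in young adults. In both species embryos were low and L1 larvae were already high. From L1 to L4 high and low stages alternated, with L2 low and L3 high in C. elegans and L2 high and L3 low in C. briggsae.

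The gene mlt-10 is needed for molting in C. elegans, and its promoter has served as a reporter of the cycle. In C. elegans it was at 88.9, 90.9 and 84.6 RPKM in embryos, at 7.45, 7.39 and 6.57 in L1, at 6.27 in L2, 171 in L3, 38.6 in L4, 47.5 in late L4 and 0.919 in young adults. In C. briggsae it was at 12.3, 8.18 and 0.184 RPKM in embryos, at 2.60, 2.39 and 2.53 in L1, at 23.8 in L2, 37.98 in L3, 57.1 in L4, 25.1 in late L4 and 1.52 in young adults. The C. elegans maximum in L3 stood more than 3 times above every other larval stage, while the C. briggsae levels from L2 to late L4 were within 23.8 to 57.1 RPKM. The embryo cultures of C. briggsae disagreed: culture A averaged 10.3 RPKM and culture B 0.184.

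Embryos were compared with L1 larvae because these stages have 2 cultures in each species. In C. elegans the test ran on 15277 genes, of which 70.8% passed (adjusted p under 0.05), 42.6% with a higher and 28.3% with a lower level in embryos. The minimum of 1 RPKM in 2 samples was met by 8 molting genes, and 6 of them were higher in embryos and 1 lower; nas-37 and bli-5 did not meet it. The median log2 difference of the 8 was 1.41, against 0.33 over all genes tested. In whole-animal RNA, fewer cells of a type and less RNA per cell cannot be told apart.

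The largest C. elegans difference was that of mlt-11, at 95.7 ± 20.2 RPKM in embryos and 0.900 ± 0.468 in L1 (SD, n = 2 cultures), a log2 difference of 5.69 ± 0.29 (SE, limma, adjusted p = 9.74e-06). It met the minimum level through the embryos. For mlt-10 the embryo and L1 levels were 87.3 ± 3.75 and 7.00 ± 0.603 RPKM (log2 difference 3.47 ± 0.21, adjusted p = 1.75e-05). For lin-42 they were 32.1 ± 4.62 and 2.44 ± 1.12 RPKM (log2 difference 3.31 ± 0.31, adjusted p = 8.87e-05). The receptors nhr-25 (1.42 ± 0.21, adjusted p = 0.000747) and nhr-23 (1.41 ± 0.32, adjusted p = 0.00573) were higher in embryos by smaller steps. The peroxidase gene mlt-7 went the other way, at 4.07 ± 0.753 RPKM in embryos and 40.2 ± 5.67 in L1 (log2 difference -3.05 ± 0.26, adjusted p = 5.51e-05). For lrp-1 the log2 difference was 0.73 ± 0.26 (adjusted p = 0.0381), a call that was lost in 6 of 9 alternative fits. With quantile normalization, which moved the median of all genes from 0.33 to 0.07, it was 0.31 (adjusted p = 0.296). Over all alternatives its adjusted p ran from 0.00486 to 0.296. The difference of nekl-2, -0.14 ± 0.27, did not pass (adjusted p = 0.662).

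In C. briggsae 74.3% of 11891 genes passed, 32.8% higher and 41.5% lower in embryos. Of the 8 molting genes tested, 2 were higher in embryos and 3 lower, with a median log2 difference of 0.13 against -0.14 over all genes. The gene mlt-11 was again higher in embryos (8.36 ± 4.54 against 0.791 ± 0.591 RPKM, log2 difference 2.34 ± 0.45, adjusted p = 0.00497), and so was nhr-23 (log2 difference 1.23 ± 0.33, adjusted p = 0.0173). Lower in embryos were mlt-7 (-3.74 ± 0.34, adjusted p = 0.000360), nekl-2 (-2.19 ± 0.26, adjusted p = 0.000857) and lrp-1 (-1.39 ± 0.26, adjusted p = 0.00491). The gene nekl-2 met the minimum level only through L1, its embryo cultures being at 0.609 and 0.175 RPKM, and without either L1 culture it was not tested. The differences of nhr-25 (0.29 ± 0.22), lin-42 (0.21 ± 0.52) and mlt-10 (0.04 ± 1.01, adjusted p = 0.973) did not pass. For mlt-10 the outcome turned on 1 culture: without embryo culture A its log2 difference was -1.57 (adjusted p = 0.000786), and without embryo culture B it was 1.65 (adjusted p = 0.00122). For lin-42, quantile normalization gave a difference of 1.35 that passed (adjusted p = 0.0208). Without L1 culture A, which leaves 1 culture in that group, the log2 differences were 0.91 for nhr-23 and -1.25 for lrp-1. Without L1 culture B that of mlt-11 was 1.99. These calls were lost in those fits, where a smaller share of all genes passed as well. Over all alternatives adjusted p-values ran from 0.00533 to 0.115 for nhr-23, from 0.00213 to 0.0841 for lrp-1 and from 9.02e-05 to 0.0644 for mlt-11, and from 0.0208 to 0.889 for lin-42 and 0.000786 to 0.987 for mlt-10.

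**Figure D3:**
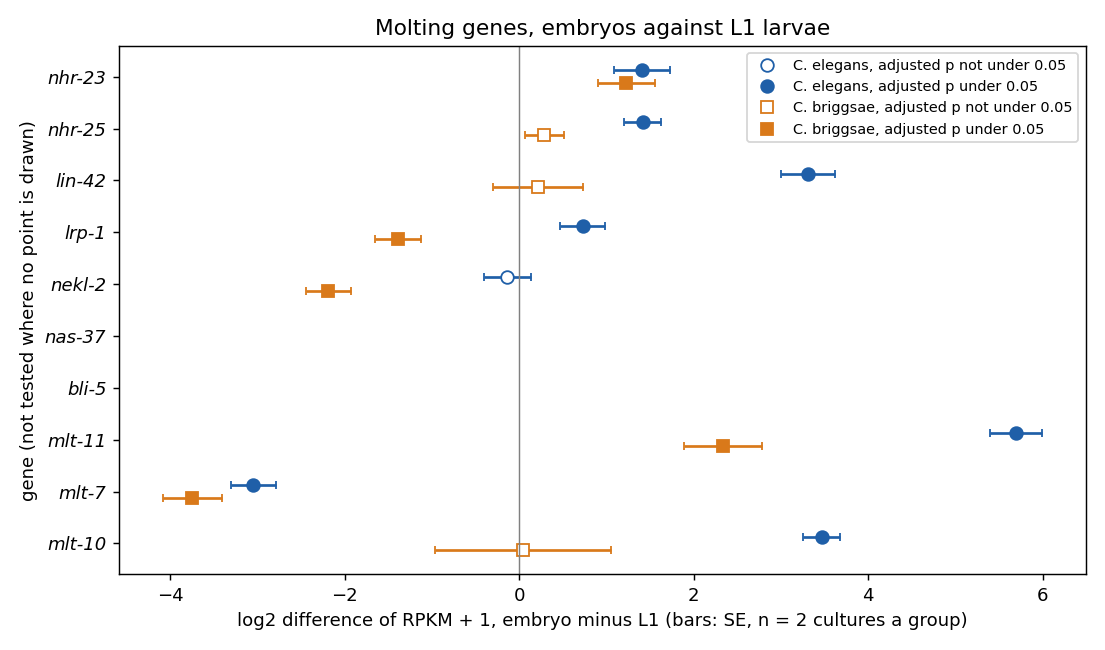
Log2 difference of RPKM + 1 between embryos and L1 larvae for the molting genes (bars are SE, n = 2 cultures a group), in C. elegans (circles) and C. briggsae (squares), filled where the adjusted p is under 0.05. The C. elegans values of lin-42, mlt-11 and mlt-10 (3.31, 5.69 and 3.47) lie well to the right of those of C. briggsae (0.21, 2.34 and 0.04), and mlt-7 lies far below 0 in both.

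The species difference in the embryo step was tested as an interaction over 8 cultures. Of 12603 ortholog pairs, 50% passed, 32.8% with a lower embryo-minus-L1 difference in C. briggsae than in C. elegans and 17.1% with a higher one. Of 9 molting genes tested, 7 passed and all 7 were lower in C. briggsae, with a median of -2.05 against -0.29 over all pairs; nas-37 did not meet the minimum level. The differences (C. briggsae minus C. elegans) were -3.42 ± 1.19 for mlt-10 (adjusted p = 0.0430), -3.36 ± 0.59 for mlt-11 (adjusted p = 0.00283) and -3.09 ± 0.68 for lin-42 (adjusted p = 0.00686). They were -2.12 ± 0.36 for lrp-1 (adjusted p = 0.00245), -2.05 ± 0.38 for nekl-2 (adjusted p = 0.00358), -1.45 ± 0.32 for bli-5 (adjusted p = 0.00690) and -1.13 ± 0.29 for nhr-25 (adjusted p = 0.0141). For bli-5 only C. elegans embryo culture B (1.04 RPKM) and C. briggsae L1 culture A (1.79 RPKM) reached the minimum level. Each is the stage that is higher in its species, so the filter favoured the sign found. The gene was tested in neither species alone, so its value stands as a description. The counts and the median of the molting genes above include bli-5. The 2 genes that did not pass were nhr-23 (-0.18 ± 0.49, adjusted p = 0.788) and mlt-7 (-0.70 ± 0.42, adjusted p = 0.203).

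The scaling bears on this comparison. Of the pairs called, 34.3% were higher in C. briggsae on the deposited scale and 52.0% after quantile normalization, which moved the median of all pairs from -0.29 to 0.03. Then 4 of the 9 molting genes tested passed (nhr-25, lin-42, nekl-2 and mlt-11), and so did 5947 of 12603 pairs, a similar share. The calls of lrp-1 (adjusted p = 0.0620), bli-5 (adjusted p = 0.0844) and mlt-10 (adjusted p = 0.105) were lost. Without C. elegans embryo culture B, which leaves 1 culture in that group, the differences were -1.05 for nhr-25 and -3.47 for mlt-10. Over all alternatives adjusted p-values ran from 0.00262 to 0.0620 for lrp-1, from 0.00192 to 0.0844 for bli-5 in the 11 of 13 that tested it, from 0.00610 to 0.0532 for nhr-25 and from 5.85e-05 to 0.114 for mlt-10, whose call was lost in 8 of 13. Without C. elegans embryo culture B or without C. briggsae L1 culture A, bli-5 did not meet the minimum level. The 6 measured epidermal markers (dpy-7, dpy-13, rol-6, sqt-1, sqt-3, lin-26) moved in the same way. Their summed level was 2627 to 4104 RPKM in C. elegans embryos and 41.8 to 112.3 in L1, and 241.6 to 711.5 RPKM in C. briggsae embryos and 83.4 to 136.2 in L1. At least 1 RPKM was reached by 4 of the 6 in each C. elegans embryo library and by 3 or 4 in those of C. briggsae. None was at 0. The sum also swung between larval stages, from 41.8 RPKM in an L1 library to 7398 in L3 of C. elegans. It is therefore not a gauge of epidermal RNA content alone. The embryo marker list summed to 585 to 682 RPKM in C. elegans embryos and 1884 to 2836 in those of C. briggsae. The part of epidermal RNA content and of embryo age in the molting gene values was not tested.

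Between consecutive larval stages no ortholog pair passed in the additive model. From L2 to L3, 0% of pairs and none of the 10 molting genes passed in limma's test, although 5 of the 10 had an unadjusted p under 0.05, as did 413 of 12945 pairs. The log2 differences, each over both species, were 3.88 for mlt-11, 3.51 for nas-37, 3.32 for lin-42, 2.61 for mlt-10 and 2.43 for nhr-23. The median of the 10 was 1.84, against -0.07 over all pairs. Read in each species separately, 6 of the 10 were higher in L3 than in L2 in both and 0 were lower in both. Of 5273 ortholog pairs that ranged over at least 2 log2 units in each species, 18.7% were higher in both and 36.9% lower in both. The share that passed was also 0% from L1 to L2, from L3 to L4 and from L4 to late L4. Unadjusted p-values under 0.05 there numbered 576, 105 and 251 pairs and 1, 0 and 0 molting genes. From L3 to L4 the species ran opposite ways in 8 of the 10 genes, against 59.8% of the 5273 pairs, and such a difference counts as error in this model.

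The step into adulthood passed in the model for part of the group. From late L4 to young adult 8.28% of 12945 pairs passed, 6.6% higher and 1.68% lower in young adults. Of the 10 molting genes 5 passed, and all 5 were lower in young adults. The log2 differences were -5.69 ± 1.33 for mlt-11 (adjusted p = 0.0328), -4.39 ± 1.07 for lin-42 (adjusted p = 0.0374), -4.01 ± 0.99 for mlt-10 (adjusted p = 0.0394), -2.93 ± 0.70 for lrp-1 (adjusted p = 0.0345) and -2.84 ± 0.49 for nhr-25 (adjusted p = 0.00851). The median of the 10 was -2.10, against -0.12 over all pairs. The other 5 did not pass: mlt-7 (-1.37 ± 0.72), nekl-2 (-0.60 ± 0.60), bli-5 (-0.50 ± 0.72), nhr-23 (-0.43 ± 0.60) and nas-37 (0.22 ± 0.90).

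These calls rest on 4 libraries. Without the C. elegans late L4 library 1 molting gene passed (333 pairs in all), without the C. elegans young adult library 0 passed (272 pairs), without the C. briggsae late L4 library 1 passed (391 pairs) and without the C. briggsae young adult library 2 passed (851 pairs). All 5 called genes were lower in young adults in each species on its own. Few reads lie behind the C. elegans young adult values of the called genes other than lrp-1. At the shortest and longest transcript the estimates were 8.43 to 9.22 for nhr-25, 22.6 to 31.9 for mlt-11 and 8.06 to 74.7 for lin-42. They were 55.3 for mlt-10 and 1070 for lrp-1. The 6 epidermal markers summed to 52.5 RPKM in C. elegans and 55.3 in C. briggsae young adults, against 2484 and 1722 in late L4. In either young adult library 5 of 6 were at 1 RPKM or more. As their sum also swung between larval stages, it is not a gauge of epidermal RNA content alone. The 8 embryo markers, several of which are maternal messages, summed to 1034 and 927 RPKM in young adults. The part of these differences in the molting gene values was not tested.

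**Figure D4:**
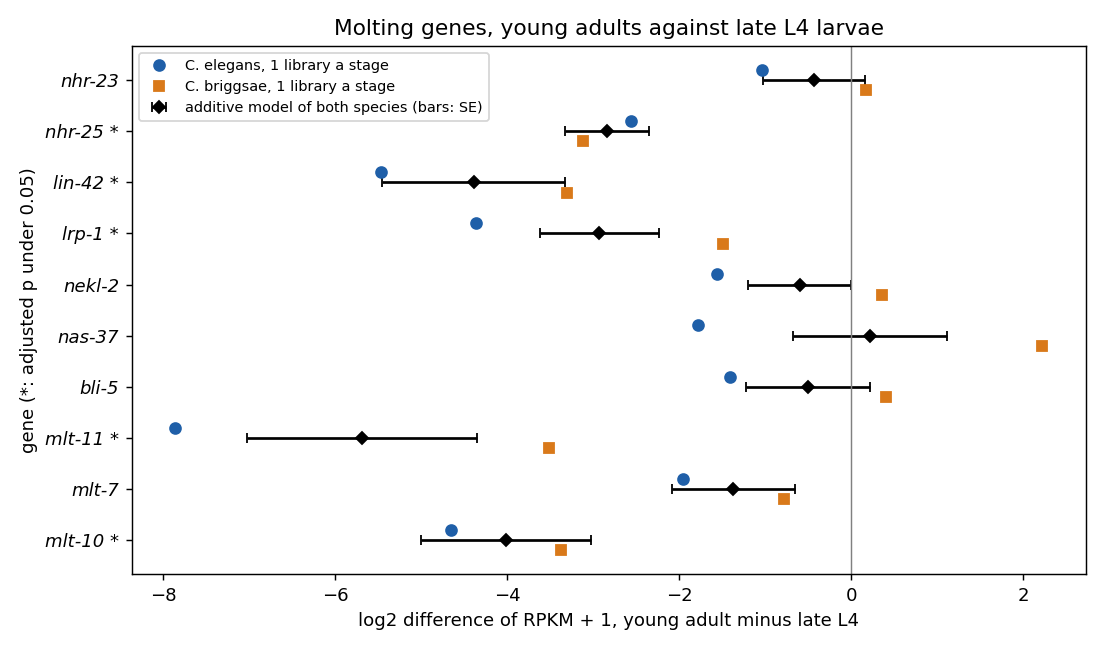
Log2 difference of RPKM + 1 between young adults and late L4 larvae for each molting gene: C. elegans (circles) and C. briggsae (squares) with 1 library a stage, and the additive model of both species (diamonds, bars are SE). The 5 starred genes passed at an adjusted p under 0.05, with values from -2.84 to -5.69, and nas-37 has C. elegans below 0 and C. briggsae above 0.

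The genes grouped unevenly with each other over the 14 stage values of both species, on the log2(RPKM + 1) scale with each species centred. The correlations are descriptions over libraries that share stages. Pearson r was 0.95 between lin-42 and mlt-11, 0.90 between lin-42 and mlt-10, 0.88 between mlt-10 and mlt-11, and 0.88 between mlt-7 and nekl-2. The lowest values were -0.51 between nhr-25 and nas-37 and -0.49 between nhr-23 and mlt-7. Between the species, the 7-stage courses correlated with a median r of 0.70 over the 10 genes, against a median of 0.78 and quartiles of 0.51 and 0.91 over the 5273 pairs.

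The pairs most alike to each gene were sought among the same 5273. For mlt-11 they were lpr-5 and lpr-4, lipocalin-related genes, each with r = 1.00 after rounding. In C. elegans lpr-5 was at 162 RPKM in culture A embryos, 1.54 in L1, 332 in late L4 and 0.218 in young adults. The C. briggsae libraries had it at 24.3 RPKM in embryos, 2.11 in L1, 363 in L3 and 0.585 in young adults. Both courses follow those of mlt-11, including the shift of the maximum from late L4 to L3. The closest pairs were C01F1.5 and T16G1.2 for lin-42 (r = 0.98 for each), Y71G12B.25 and bus-8B for mlt-10 (0.97 for each) and ptr-12 (0.96) and acs-16 (0.95) for mlt-7. For nhr-25 they were cki-1, a cyclin-dependent kinase inhibitor gene (0.98), and T28F4.1 (0.97), and for lrp-1 F13D11.4 (0.96) and dre-1 (0.95), an F-box gene of the heterochronic pathway. For nekl-2 they were smp-2 (0.95) and ZC247.1 (0.94), for bli-5 ugt-25 (0.90) and R05G6.9 (0.86), and for nas-37 lep-5 (0.88) and R148.7 (0.87). The course of nhr-23 had the weakest matches, pdi-1 (0.79) and F56C11.5 (0.76).

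**Figure D5:**
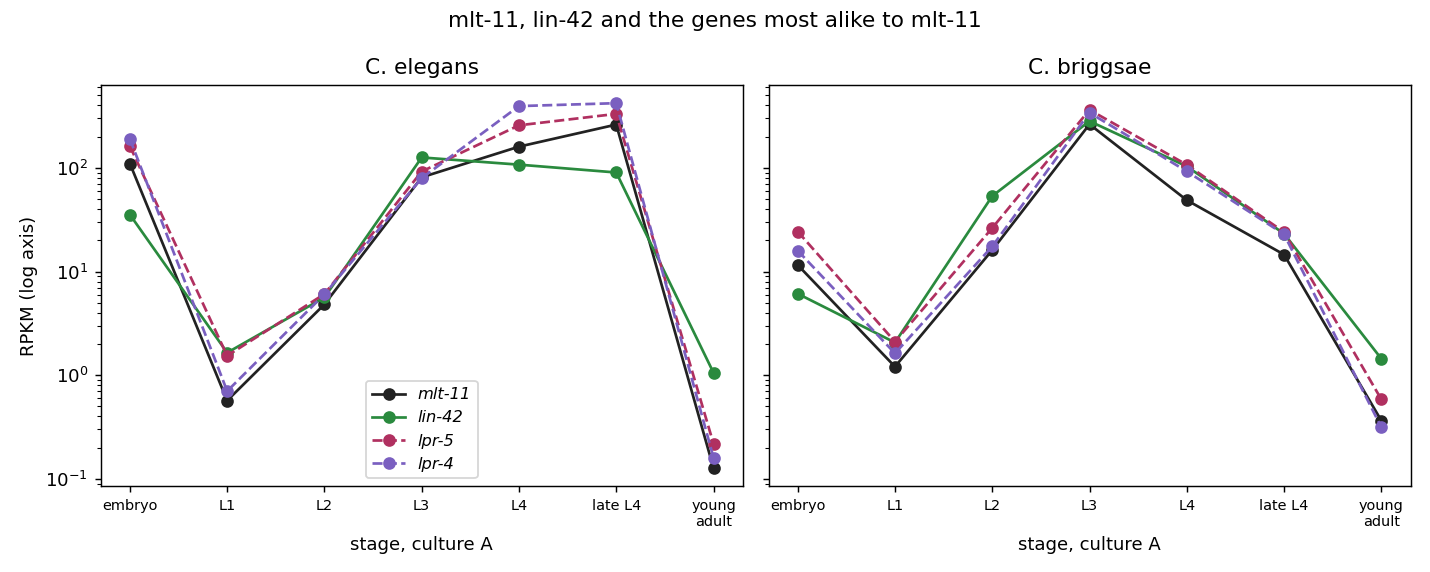
RPKM (log axis) by stage in culture A of mlt-11, of lin-42 and of the genes most alike to mlt-11, lpr-5 and lpr-4, in C. elegans (left) and C. briggsae (right). The mlt-11 and lpr lines run together, with their highest point in late L4 in C. elegans (261 RPKM for mlt-11) and in L3 in C. briggsae (263 RPKM).

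Other genes of the molting program were read from the same fits in 5 lists. The first list was headed apical matrix proteins, a heading that does not state the kind of protein each gene encodes. It also held bli-1 and bli-2. In C. elegans 11 of 11 tested were higher in embryos than in L1 (median log2 difference 4.32 against 0.33 over all genes), where 42.6% of all genes were higher and 28.3% lower. The largest were noah-2 (6.07 ± 0.60) and lpr-3 (6.02 ± 0.41). In C. briggsae 7 of 12 were higher and 1 lower (median 1.75 against -0.14), where 32.8% of all genes were higher and 41.5% lower. The largest were noah-2 (3.49 ± 0.36) and noah-1 (3.23 ± 0.27). From late L4 to young adult 8 of 13 were lower and 0 higher (median -4.50), against 1.68% lower and 6.6% higher over all pairs, with lpr-3 at -6.75 ± 1.34 and sym-1 at -6.55 ± 1.16. For any stage 10 of 13 passed, against 38.9% of all pairs. The background shares given here hold for the lists that follow.

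Timing regulators and transcription factors were mixed in embryos against L1. In C. elegans 5 of 12 were higher and 3 lower, with bed-3 (2.58 ± 0.24) and nhr-91 (2.28 ± 0.25) the largest. In C. briggsae 0 were higher and 7 lower, led by nhr-85 (-3.69 ± 0.27) and the steroid receptor gene daf-12 (-3.47 ± 0.28). Into adulthood 3 of 12 were lower, among them nhr-85 (-3.68 ± 0.67) and myrf-1 (-3.48 ± 0.89), a membrane-bound transcription factor gene.

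The protease and inhibitor list, the cross-linking list and the list of sterol uptake and trafficking genes completed the set. These names are headings and do not state the activity of each gene. In the protease and inhibitor list 6 of 11 were higher and 2 lower in C. elegans embryos. There acn-1 was at 3.90 ± 0.49 and the ADAMTS protease gene adt-2 at -3.62 ± 0.23. In C. briggsae 1 was higher and 6 were lower, adt-2 again at -4.88 ± 0.25 and the astacin gene dpy-31 at -2.82 ± 0.26. Of 7 genes of the cross-linking list 4 were higher and 1 lower in C. elegans embryos, skpo-2 at 3.96 ± 0.25 and dpy-18 at 1.72 ± 0.31. In C. briggsae 0 of 6 were higher and 2 lower, tsp-15 at -4.36 ± 0.35 and doxa-1 at -1.09 ± 0.29. The doxa-1 difference was 0.09 after quantile normalization. Of 14 uptake, trafficking and NEKL partner genes 6 were higher and 1 lower in C. elegans embryos, with the hedgehog-related genes wrt-2 (6.75 ± 0.23) and wrt-10 (6.27 ± 0.29) the largest. In C. briggsae 2 were higher and 4 lower, wrt-10 at 4.66 ± 0.39 and nekl-3 at -2.68 ± 0.29. Some named genes were below 1 RPKM in the lower stage of culture A. In C. elegans L1 these were wrt-2 (0.510) and skpo-2 (0.645). In C. briggsae embryos they were adt-2 (0.859), daf-12 (0.594) and nekl-3 (0.715). Such genes met the minimum level largely or wholly through the higher stage.

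In young adults against late L4, skpo-1, a peroxidase gene, was the only one of the 7 genes of the cross-linking list to pass. It was higher in young adults. It was at 0.311 RPKM in late L4 and 67.9 in young adults of C. elegans, and at 0.193 and 92.6 RPKM in C. briggsae (log2 difference 6.00 ± 0.49, adjusted p = 0.000138). Of the protease and inhibitor list, acn-1 was lower (-4.70 ± 1.18), and of the uptake list wrt-10 (-6.59 ± 1.26) and ptr-4 (-5.34 ± 1.19) were lower. All list genes named here passed at an adjusted p under 0.05 with every library in the fit. Without the C. elegans late L4 library the young adult calls of lpr-3, sym-1, acn-1, wrt-10, ptr-4, nhr-85 and myrf-1 were lost (adjusted p = 0.106 to 0.326), and likewise without the C. elegans young adult library (0.105 to 0.329). Without the C. briggsae young adult library those of lpr-3, acn-1, ptr-4 and myrf-1 were lost (0.0530 to 0.0851), and without the C. briggsae late L4 library that of myrf-1 (0.0785). The call of skpo-1 was kept in all 7 alternatives.

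The embryo-minus-L1 difference was lower in C. briggsae than in C. elegans for 11 of 12 timing regulators and 9 of 11 genes of the protease list. So it was for 7 of 12 genes of the apical matrix list, 5 of 7 of the cross-linking list and 8 of 14 uptake and trafficking genes. It was higher for 1 gene of the apical matrix list, bli-2, and for 0 of the other lists. The cross-linking count includes skpo-1, which did not meet the minimum level in C. briggsae alone (culture A at 0.228 RPKM in embryos and 0.139 in L1). In C. elegans culture A it was at 1.95 RPKM in embryos and 0.184 in L1. It thus entered the test largely through C. elegans embryos. The filter favoured the sign found, and its value stands as a description. The gene bli-2 did not meet the minimum level in C. elegans alone and was higher in C. briggsae embryos than in L1 (log2 difference 2.70). The filter may have favoured its sign too. Over all pairs 32.8% were lower and 17.1% higher.

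The mean of the 2 mixed-stage reference libraries lay within the range over the stages for each of the 10 genes in both species, although nekl-2 in C. elegans reference A2 was at 14.02 RPKM, above its highest stage (11.11). In C. elegans mlt-11 was at 12.3 and 5.95 RPKM in reference A1 and A2, lin-42 at 17.1 and 8.92, and mlt-10 at 13.98 and 10.7. In C. briggsae mlt-11 was at 41.3 and 37.3 RPKM, lin-42 at 56.9 and 46.1, and mlt-10 at 32.6 and 25.1. These 3 genes were thus lower in both C. elegans reference libraries than in both of C. briggsae, as were nhr-23 and nhr-25. The opposite held for nas-37 (21.7 and 27.8 RPKM in C. elegans, 15.7 and 15.3 in C. briggsae). It also held for nekl-2 (6.26 and 14.02 against 3.05 and 4.44). The reference values of lrp-1, bli-5 and mlt-7 overlapped between the species.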

How the data were processed

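The authors deposited RPKM values for 26 libraries (13 per species), per the file headers. The submitters' processing notes name BWA 0.5.7. No source used here gives the genome build, annotation or counting rule. Each C. briggsae value is listed under the C. elegans ortholog's ID, and 125 IDs with identical C. briggsae values were left out. Read counts were not used here, so depth is an estimate.

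Values were used as deposited. Tests used limma (version 3.58.1, R 4.3.3, lmFit and eBayes with trend) on log2(RPKM + 1), a scale that understates the change of low genes. Libraries A1 and A2 were averaged on that scale as culture A. A gene was tested if 2 or more of the compared samples reached 1 RPKM, and p-values were Benjamini-Hochberg adjusted over all genes tested with a threshold of 0.05. The models were embryo against L1 per species (2 against 2 cultures), their interaction (8 cultures) and an additive model of species and stage (14 samples, 6 residual degrees of freedom). The fits were tested on simulated data. Python 3.11.15, pandas 2.3.3, numpy 2.4.6 and matplotlib 3.10.9 did the rest.

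The labels state that A and B are separate time courses, so embryos and L1 larvae of a letter share a course. Their deviations from the group means correlated with r = -0.01 over 15277 C. elegans genes and 0.20 over 11891 in C. briggsae. The members and gene lists were chosen with earlier results of these data known. All 10 members are named in every comparison. From each list the 2 called genes with the largest difference per comparison are named, and likewise the 2 most alike pairs per member. Alternatives were another pseudocount (0.1), no filter, quantile normalization, a replicate block and leaving out each sample. The C. elegans embryo library A1 was also left out alone. In the additive model, embryos and L1 were also taken as the mean of cultures A and B.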

Additional observations from a re-analysis of the deposited data

Results flagged for a closer look

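The interaction test called 7 molting genes for a species difference in their embryo-minus-L1 change (C. briggsae minus C. elegans, log2). They include bli-5, which met the minimum level only through the higher stage of each species. The values were -1.13 for nhr-25, -3.09 for lin-42, -2.12 for lrp-1, -2.05 for nekl-2, -1.45 for bli-5, -3.36 for mlt-11 and -3.42 for mlt-10.

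The same test singled out 10 genes of the pathway lists. The values were -5.85 for mlt-9, -4.76 for lpr-1, -3.87 for skpo-2, -3.17 for tsp-15, -4.82 for nas-38, -3.94 for acn-1, -5.62 for wrt-2, -4.60 for ptr-4, -4.15 for grh-1 and -3.26 for bed-3. All of them were lower in C. briggsae. In culture A, nas-38 and lpr-1 were below 1 RPKM in the lower stage of each species. They were at 0.166 and 0.949 in C. elegans L1 and at 0.697 and 0.735 in C. briggsae embryos. In that culture both met the minimum level only through the higher stage of each species, so the filter favoured the sign found. In C. elegans L1, mlt-9 (0.766), skpo-2 (0.645) and wrt-2 (0.510) were below 1 RPKM as well. The calls of acn-1, grh-1 and bed-3 were lost after quantile normalization (adjusted p = 0.0653, 0.0692 and 0.0878). Those of acn-1 and grh-1 were also lost with a pseudocount of 0.1 (adjusted p = 0.0537 and 0.0636) and in 4 fits each that left out 1 culture (0.0906 to 0.107 and 0.0730 to 0.0806). For bli-5 only 2 of the 8 cultures reached the minimum level, so its value is a description.

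In 4 steps the species moved opposite ways by at least 1 log2 unit each, with 1 culture per species and stage, and these differences were not tested. From L3 to L4 nhr-23 went from 12.7 to 31.3 RPKM in C. elegans but from 34.7 to 10.3 in C. briggsae, a difference in change of -2.89. From late L4 to young adult nas-37 went from 41.1 to 11.3 RPKM in C. elegans but from 4.27 to 23.6 in C. briggsae, a difference of 4.00. For mlt-7 the difference was 2.31 from L1 to L2 and -3.42 from L2 to L3.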

How the results depend on the processing

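Of 799 recomputed values of the molting genes, 693 kept direction and call, 56 lost the call, 2 gained one, 1 reversed and 47 changed sign without a call. Of 348 values of list genes 313 kept both, 34 lost the call and 1 reversed. The reversals were mlt-10 in C. briggsae embryos against L1 (-1.57 without embryo culture A, 1.65 without embryo culture B) and doxa-1 in the same comparison (0.091 after quantile normalization). Quantile normalization left 4 molting genes and 5947 of 12603 pairs in the interaction, where the main setting gave 7 and 6299. A pseudocount of 0.1 gave 3 genes from L1 to L2, where the main setting gave 0. With the replicate block 7, 5 and 7 molting genes passed in C. elegans, C. briggsae and the interaction, as without it, and 10769, 9053 and 6066 genes; it changed no call of a molting gene. Leaving out single samples gave 4 to 7 molting genes in the interaction, and 2 to 6 with 5122 to 8690 genes in C. briggsae. It gave 0 to 8 genes from L1 to L2, 0 to 5 from L3 to L4 and 0 to 9 from L4 to late L4. It gave 0 to 2 molting genes and 272 to 851 genes from late L4 to young adult, and 5 to 8 molting genes for any stage. The cause of these changes was not tested, beyond there being fewer samples. Where a stage kept 1 sample, its spread was assumed to be that of the other groups. Depth limits the values below 1 RPKM.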
